A study of Mus musculus with 35 samples.

Results

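The imprinted growth genes Dlk1, Meg3, Plagl1, Igf2, H19, Peg3, Mest, Ndn, Cdkn1c and Grb10 were followed, 10 of the 24421 genes in the count tables. They were listed by name, and the list was drawn up because the measured levels of Dlk1, Plagl1 and Ndn differ between groups of these samples. For those 3 genes, differences between groups are therefore given as a description without a test, and the other 7 were tested. All 10 genes passed the filter on low counts in both sets of libraries.

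The libraries are poly(A) RNA-seq of immortalized mouse embryonic fibroblasts (MEFs) with the genotype Nelfb flox/-, in which 1 Nelfb allele is null and the other can be deleted by Cre. NELFB is a subunit of the negative elongation factor, a complex that holds RNA polymerase II near promoters. In 20 population libraries, cells carried pLenti with no insert (EV), wild-type NELFB (WT), MT194 (a mutant that does not bind NELFA and NELFC), MT486 (a mutant that does not bind NELFE) or the double mutant DMT, and RNA was taken 7 days after Ad-Cre-GFP (here Ad-Cre) or Ad-GFP, with 2 replicates in each of the 10 groups. In 15 further libraries, single cells were expanded into stable clones after Ad-Cre, with 3 clones each of pLenti WT, MT194 and MT486, and 3 each of pBabe WT-ATG-NELFB (labelled WT(N48)) and pBabe Δ-C60, which lacks the carboxyl-terminal end of NELFB. Each clone descends from a single cell, so a value in a clone describes that clone and a value in a population describes a mixture of many cells. The vector differs between WT, MT194 and MT486 on the one hand and WT(N48) and Δ-C60 on the other, so vector and construct cannot be told apart between those sets. Reads on genes numbered 18413284 to 27816723 per clone library and 17969149 to 29080007 per population library. Values are CPM, the read count scaled to a common library size, scaled by the trimmed mean of M-values (TMM) within the clones and within the populations, so levels set side by side across those sets rest on separate scalings.

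Imprinted genes are transcribed mainly from the allele inherited from 1 parent, and the choice is kept through cell divisions by DNA methylation at control regions. Several of them lie in pairs or clusters with a shared control region, such as Igf2 with H19 and Dlk1 with Meg3, and in those pairs the coding gene and the non-coding RNA are read from opposite parental alleles. In mouse embryos many of these genes are abundant in mesenchymal tissue and decline after birth, and the group includes growth promoters such as Igf2 as well as growth inhibitors such as Cdkn1c and Grb10.

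Nelfb itself was checked first. Its level in the EV populations was 7.97 and 5.46 CPM with Ad-Cre against 46.1 and 39.5 CPM with Ad-GFP. Among the libraries labelled WT, clones 1 and 3 had 10.3 and 15.5 CPM and clone 2 had 109 CPM, whereas the other 12 clones had 56.3 to 247 CPM. The 3 clones are therefore called libraries labelled WT, and WT in a comparison of clones stands for them. The tests against WT were repeated without clones 1 and 3, which leaves 1 library labelled WT that is assumed to vary like the other groups. MT486 clones 1 and 2 were unusually alike, with a chi-square of 5.06 per degree of freedom between their counts against 32.4 or more for every other pair of replicates in a group. They differed by more than sampling noise and were counted as separate clones, although the labels do not say that they came from separate infections. The p-values for clones therefore measure the spread between these libraries, part of which may be technical.

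The cells carried the RNA of fibroblasts. The 10 fibroblast markers summed to between 7437 and 25666 CPM in the clones and between 20519 and 44117 CPM in the populations, with Fn1 the most abundant, although Thy1 was below 1 CPM on average in both sets and Lum in the clones. Markers of epithelium, endothelium, skeletal muscle and pluripotent cells were all below 1 CPM on average, and of the leukocyte markers Cd68 alone was above it. MT194 clone 1 stood apart in skeletal muscle markers, which summed to 13.7 CPM there, 13.1 CPM of it Myod1, and to at most 3.05 CPM in the other clones. Endothelial markers summed to 5.03 CPM in Δ-C60 clone 3 and to at most 1.2 CPM in the other clones. Leukocyte markers summed to 5.98 CPM in MT194 clone 2 and to at most 2.49 CPM in the other clones. The 4 chondrocyte markers summed to 190 to 1929 CPM in the clones, led by Col2a1, and to 41.8 to 85.6 CPM in the populations, led by Sox9. Neural markers, led by Nes, summed to 196 to 483 CPM in clones and 50.1 to 163 CPM in populations, and adipocyte markers, led by Fabp4, to 5.94 to 79.6 CPM and 49.8 to 125 CPM. Adipoq, Plin1, Cfd and Lep, which mark mature adipocytes, were below 1 CPM in both sets, as was Gfap. The part of these markers in the results below was not tested.

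In the populations all 10 genes were read at 1 CPM or more in each of the 20 libraries. In such mixtures, fewer cells that express a gene and less RNA per cell cannot be told apart. Per kilobase of annotated exon, the median levels over populations were 157 CPM per kb for Igf2, the fetal growth factor, and 116 CPM per kb for Grb10, an adaptor that dampens insulin and IGF receptor signalling. Dlk1, a transmembrane protein of the Notch ligand family, followed with 53.0 CPM per kb. Peg3, a zinc finger protein, had 14.1, and the H19 RNA 10.5 CPM per kb. Ndn, which encodes the growth suppressor necdin, had 8.15, the Meg3 RNA 7.54 and Plagl1, a zinc finger transcription factor, 7.04 CPM per kb. Mest, a hydrolase-like protein, had 3.86, and Cdkn1c, the cyclin-dependent kinase inhibitor p57, had 2.92 CPM per kb. Between the lowest and the highest population, levels differed by 1.79-fold for Grb10, 2.35-fold for Plagl1 and 2.87-fold for Peg3, and by at most 8.5-fold, for H19.

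**Figure D1:**
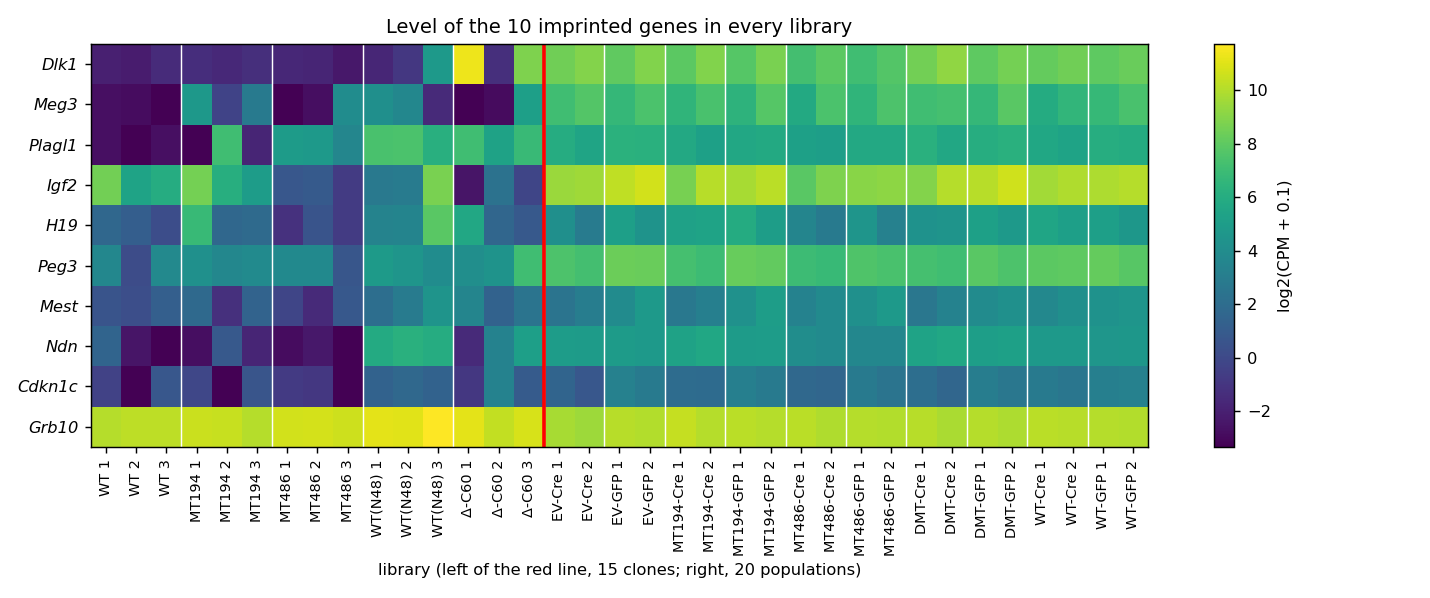
Level of each of the 10 genes (rows) in every library (columns), as log2(CPM + 0.1) on a colour scale, with clones left of the red line and populations right of it. Population columns look alike, whereas in the clones most genes switch between dark and bright from clone to clone, apart from Grb10.

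The clones differed from each other far more. Dlk1 ranged from 0.0921 to 2583 CPM over the 15 clones, Plagl1 from 0 to 176 CPM and Igf2 from 0.0802 to 414 CPM. The standard deviation (SD) of log2(CPM + 0.1) over the clones was 4.46 for Plagl1, 4.32 for Dlk1, 3.78 for Ndn, 3.58 for Igf2 and 3.49 for Meg3, and 0.47 for Grb10. The median over the 10 genes was 3.07 against 0.39 over the 11777 genes that averaged 1 CPM or more in each set. Over the populations the corresponding medians were 0.59 and 0.27. Within groups, which leaves out differences between constructs, the median SD was 2.14 over the clones against 0.32 for all genes, and 0.35 over the populations against 0.25 for all genes. For 9 of the 10 genes the SD over clones lay above that of 95% of genes, with Grb10 the exception. Among the 9, Meg3, Igf2, H19, Peg3, Mest and Cdkn1c were not chosen by their differences between groups. Because 3 of the 10 were chosen by their differences between groups, the values of Dlk1, Plagl1 and Ndn are no independent evidence of a larger spread. The medians over the 10 genes included them. The 7 other genes had SDs over clones of 3.58 (Igf2), 3.49 (Meg3), 2.66 (H19), 1.99 (Cdkn1c), 1.66 (Mest), 1.60 (Peg3) and 0.47 (Grb10). In that order Cdkn1c was the middle gene.

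**Figure D2:**
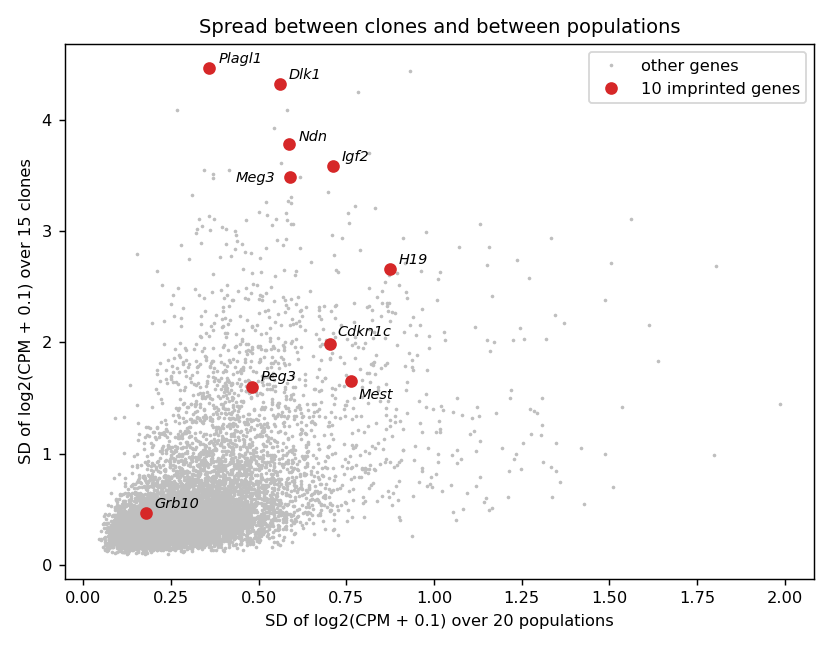
SD of log2(CPM + 0.1) over 20 populations (x axis) and over 15 clones (y axis) for 11777 genes, with the 10 imprinted genes in red. Plagl1 and Dlk1 lie at the top with SDs of 4.46 and 4.32 over clones, and Grb10 lies among the bulk of genes at 0.47.

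Most clones also lay below the populations. For 8 of the 10 genes, at least 10 of the 15 clones had a level below that of every population library, and 16.1% of all genes met the same rule. Dlk1 and Ndn are among the 8 and were chosen by their differences between groups, and of the 7 genes not chosen that way 6 met it. Meg3 was below the population range in 15 clones, Peg3 in 14, Dlk1 in 13 and Igf2 in 12, while Grb10 was below it in 0 clones and above it in 10. Clones and populations were scaled separately and differ in the time after Cre and in single-cell cloning, and these cannot be told apart. At a level of 1 CPM or more, 9 of the 10 genes were present in each of the 3 WT(N48) clones and in Δ-C60 clone 3. The fewest, 4, were present in MT486 clone 1, where Plagl1, Igf2, Peg3 and Grb10 passed that level.

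Dlk1 inhibits the maturation of preadipocytes and other progenitors. It was read at 0.155, 0.124 and 0.254 CPM in the libraries labelled WT, at 0.294, 0.237 and 0.3 CPM in MT194, and at 0.217, 0.197 and 0.0921 CPM in MT486, which corresponds to 2 to 6 reads per library. In WT(N48) the clones had 0.203, 0.45 and 27.4 CPM, and in Δ-C60 they had 2583, 0.3 and 455 CPM. Thus 12 of 15 clones were below 1 CPM, and the 3 others were split between WT(N48) clone 3 and Δ-C60 clones 1 and 3. The group mean in Δ-C60 was 1013 ± 1379 CPM (SD, n = 3), and the range in Δ-C60 overlapped that of WT(N48). In the populations Dlk1 was between 139 and 606 CPM with a median of 300 CPM.

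Plagl1, also called Zac1, promotes cell cycle arrest and regulates other imprinted genes. The libraries labelled WT had 0.0515, 0 and 0.0507 CPM, and 0 reads in clone 2 labelled WT allow a level of up to 0.124 CPM (3 reads, counting error only). MT194 clones had 0, 137 and 0.200 CPM, with a single clone at a level like that of the highest groups. MT486 clones had 31.0, 28.2 and 11.7 CPM, WT(N48) clones 171, 176 and 73.1 CPM, and Δ-C60 clones 137, 39.8 and 117 CPM. The WT range lay below those of MT486, WT(N48) and Δ-C60 and overlapped that of MT194, and WT(N48) and Δ-C60 overlapped each other. Populations had 33.8 to 79.3 CPM, so 5 clones lay above all populations and 8 below.

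Ndn, a member of the MAGE family linked to exit from the cell cycle and to Prader-Willi syndrome, was high in 1 group. WT(N48) clones had 58.0, 75.1 and 63.5 CPM (mean 65.5 ± 8.74, SD, n = 3). Δ-C60 clones had 0.241, 10.3 and 36.3 CPM. The libraries labelled WT had 2.83, 0.083 and 0 CPM, the MT194 clones 0.0489, 1.76 and 0.200 CPM, and the MT486 clones 0.0434, 0.0985 and 0 CPM. The WT(N48) clones thus lay above all other clones, while the other 4 groups overlapped in part. In the populations Ndn ranged from 12.5 to 49.3 CPM, and its lowest values were the 4 MT486 libraries, with 16.2 and 14.8 CPM after Ad-Cre and 12.5 and 12.6 CPM after Ad-GFP. Magel2, the neighbour of Ndn on chromosome 7, was listed at 0 in every library, and Mkrn3, another neighbour, was at 1.47 to 4.99 CPM in the clones.

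**Figure D3:**
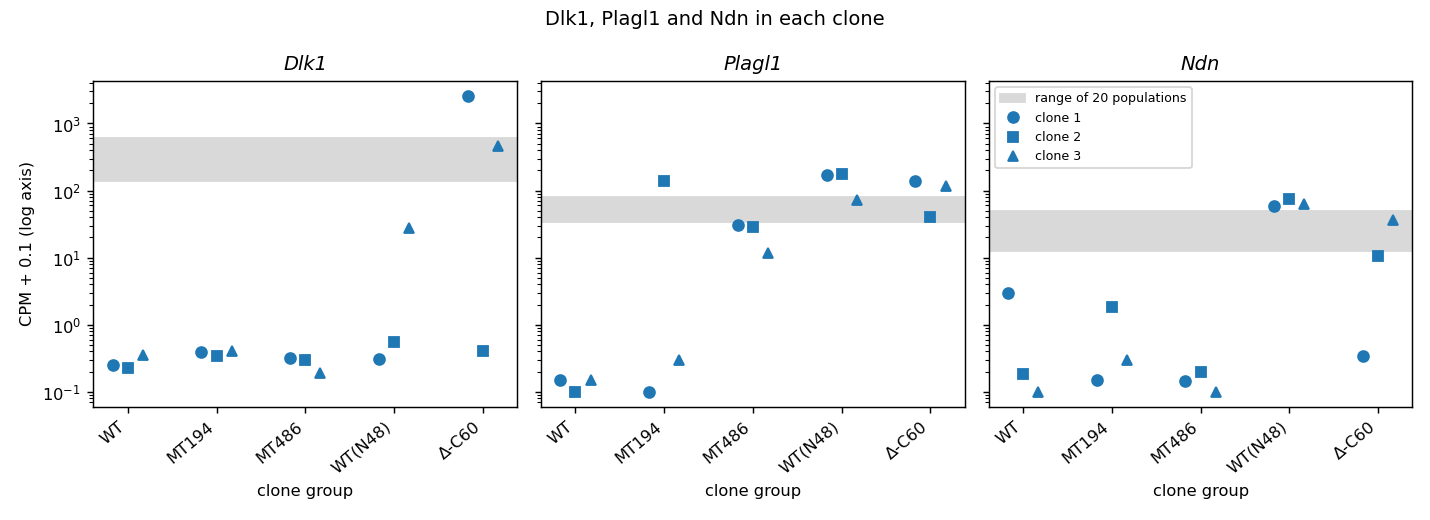
CPM + 0.1 on a log axis for Dlk1, Plagl1 and Ndn in each of 3 clones (symbols) per group, with the range of the 20 populations as a grey band. Dlk1 is at or near the axis floor in 12 clones, Plagl1 is near 0 in the libraries labelled WT and in MT194 clones 1 and 3, and Ndn is high in the 3 WT(N48) clones.

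The sequences before the transcription starts of these 3 genes and of Meg3 are shown because their RNA was near absent in some clones and abundant in others, and because CpG pairs, marked here in capitals, are the bases at which imprints are kept. Each sequence is the 250 bases before a start in RefSeq (GRCm38.p6), for Plagl1 and Ndn a start inside the longer annotated gene, on the plus strand and written 5′ to 3′. The Dlk1 window is chr12:109452573-109452822, the Meg3 window chr12:109540746-109540995, the Plagl1 window chr10:13090582-13090831 and the Ndn window chr7:62348027-62348276.
Dlk1: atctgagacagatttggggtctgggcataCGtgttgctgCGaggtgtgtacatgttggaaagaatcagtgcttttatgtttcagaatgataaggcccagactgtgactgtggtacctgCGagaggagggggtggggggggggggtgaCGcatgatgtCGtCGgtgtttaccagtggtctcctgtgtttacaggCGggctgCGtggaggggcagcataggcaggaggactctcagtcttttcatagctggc
Meg3: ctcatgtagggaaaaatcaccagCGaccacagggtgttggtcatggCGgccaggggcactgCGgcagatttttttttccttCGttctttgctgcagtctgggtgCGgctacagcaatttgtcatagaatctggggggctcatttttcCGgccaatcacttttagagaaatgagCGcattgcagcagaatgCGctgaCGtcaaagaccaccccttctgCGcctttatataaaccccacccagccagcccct
Plagl1: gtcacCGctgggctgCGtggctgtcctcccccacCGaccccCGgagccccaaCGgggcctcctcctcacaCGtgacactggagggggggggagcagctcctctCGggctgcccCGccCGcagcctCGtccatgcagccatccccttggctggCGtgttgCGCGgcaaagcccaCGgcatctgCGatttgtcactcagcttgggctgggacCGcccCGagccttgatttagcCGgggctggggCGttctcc
Ndn: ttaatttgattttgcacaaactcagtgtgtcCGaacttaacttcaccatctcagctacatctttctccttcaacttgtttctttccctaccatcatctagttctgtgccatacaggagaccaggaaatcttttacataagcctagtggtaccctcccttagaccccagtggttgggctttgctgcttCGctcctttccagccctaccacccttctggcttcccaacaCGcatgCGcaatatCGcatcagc
The window of Plagl1 holds 19 CpG pairs, that of Meg3 shown here 10, that of Dlk1 8 and that of Ndn 5, against a median of 6 over 32851 promoter windows of the same length. At least as many as in Plagl1 occur in 19.7% of those windows, and as many as in Ndn in 55.6%. A second Meg3 window, before a start further downstream (chr12:109545148-109545397), holds 0 CpG pairs. Of the 10 genes 8 had windows, 15 in all, and H19 and Cdkn1c had no entry. The palindrome GGGGCCCC, a GC-rich core that Plagl1 protein is known to bind, occurred in 1 of the 15, that of Peg3, and in 0.889% of all windows. The TATA sequence TATAAA, searched on both strands, occurred in 1, that of Meg3 shown above, and in 12.4% of all windows. These matches describe the letters only.

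Dlk1 and Meg3 lie in the Dlk1-Dio3 domain of chromosome 12 (GRCm38, Dlk1 at 109452823 to 109463336 and Meg3 at 109541001 to 109571726, both on the plus strand). Meg3, a long non-coding RNA of the maternal allele, was read at 0.0515, 0.0415 and 0 CPM in the libraries labelled WT, at 26.3, 0.712 and 7.31 CPM in MT194 and at 0, 0.0493 and 15.7 CPM in MT486. WT(N48) clones had 17.8, 12.2 and 0.245 CPM and Δ-C60 clones had 0, 0.0375 and 36.1 CPM. No clone reached the populations, which had 56.6 to 235 CPM. Every group other than WT therefore held at least 1 clone below 1 CPM and at least 1 clone above 10 CPM.

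Rian, a non-coding RNA downstream of Meg3 that is also read from the maternal allele, followed Meg3 from clone to clone. It had 79.6, 1.19 and 25.5 CPM in MT194, 25.7 CPM in MT486 clone 3, 33.9, 25.1 and 0.771 CPM in WT(N48) and 115 CPM in Δ-C60 clone 3, and 0 to 0.13 CPM in the 7 clones with 0 or 1 read of Meg3. Over the 15 clones Pearson's r of log2(CPM + 0.1) was 0.99 and Spearman's rho 0.92, as a description of points from 5 groups with shared constructs. For Dlk1 and Meg3 the same values were 0.01 and 0.05. Both reached 1 CPM in 1 clone, Δ-C60 clone 3, Dlk1 alone did so in 2 clones, Meg3 alone in 5 and neither in 7. Dio3, the paternally expressed deiodinase at the far end of the domain, was highest in MT486 clones 1 and 2, with 76.3 and 89.0 CPM, where Dlk1 and Meg3 were both under 1 CPM. Rtl1, also paternally expressed, was below 1 CPM in every library.

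**Figure D4:**
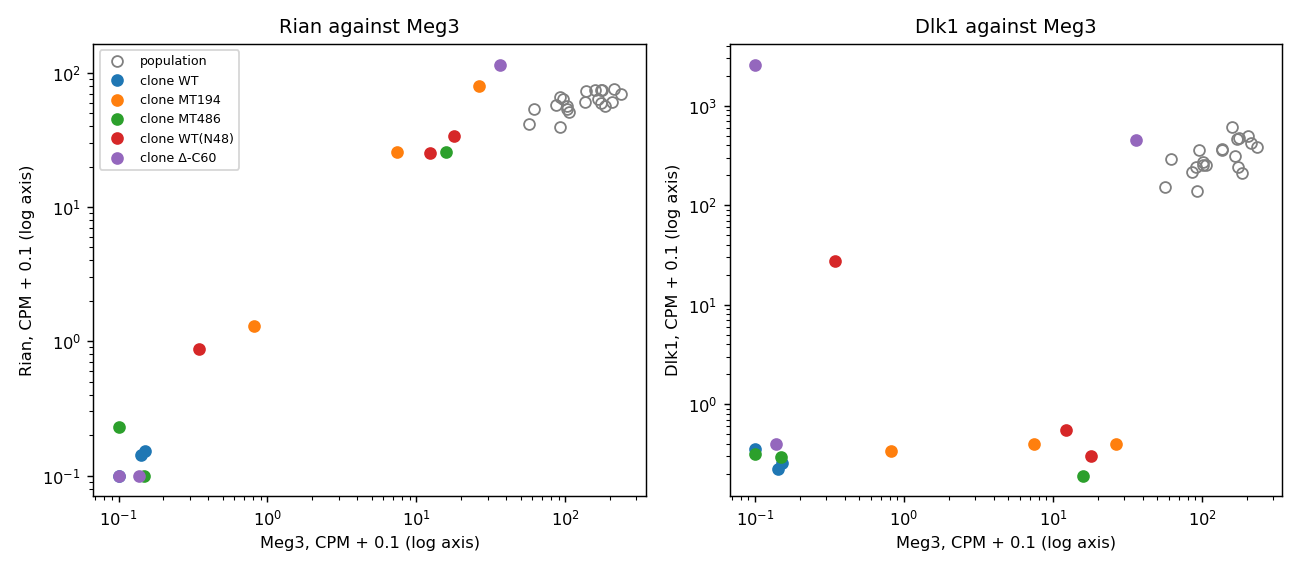
Rian (left) and Dlk1 (right) against Meg3 in each clone (filled) and population (open), as CPM + 0.1 on log axes. Rian rises with Meg3 along a line, whereas the clones with the highest Dlk1 lie at both ends of the Meg3 axis.

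Igf2 and H19 are neighbours on chromosome 7 with shared enhancers (GRCm38, minus strand, Igf2 at 142650766 to 142666816 and H19 at 142575529 to 142578143). Igf2 was read at 367, 42.9 and 64.1 CPM in the libraries labelled WT and at 378, 68.7 and 31.6 CPM in MT194, but at 1.61, 1.82 and 0.506 CPM in MT486. WT(N48) clones had 6.59, 7.64 and 414 CPM, and Δ-C60 clones had 0.0802, 4.94 and 0.790 CPM. The ranges of MT486 and Δ-C60 lay below those of WT and MT194. The share of all genes with ranges apart in these comparisons was not counted, so this separation is a description only. The fold differences were large, with log2 fold changes of −6.91 (standard error, SE, 1.96) for MT486 against WT and −6.32 (SE 1.89) for Δ-C60 against WT, but in the edgeR fit their adjusted p-values were 0.274 and 0.0574 and they did not pass the threshold.

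H19, a non-coding RNA of the maternal allele, was highest in WT(N48) clone 3 with 235 CPM, in MT194 clone 1 with 112 CPM and in Δ-C60 clone 1 with 52.4 CPM. In the 12 other clones it was between 0.348 and 10.9 CPM. Igf2 and H19 were both above 100 CPM in MT194 clone 1, the clone with the highest Myod1, and WT(N48) clone 3, while in Δ-C60 clone 1 H19 stood at 52.4 CPM beside 2 reads of Igf2, and in clone 1 labelled WT Igf2 stood at 367 CPM beside 3.14 CPM of H19. Annotated exons of Igf2 overlap those of Igf2os on the other strand, and the sources used here do not say whether the counting used strand, so reads of such pairs may not be told apart.

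Peg3 (chromosome 7, 6703892 to 6730431, minus strand) was between 1.04 and 29.2 CPM in 14 clones and reached 136 CPM in Δ-C60 clone 3, the same clone that had Dlk1, Meg3 and Rian together. Its lowest values were clone 2 labelled WT with 1.04 CPM and MT486 clone 3 with 1.52 CPM. Mest (chromosome 6, 30723547 to 30748465, plus strand) ranged from 0.246 to 22.1 CPM, with the 3 highest levels in WT(N48) clones 3 and 2 and Δ-C60 clone 1. Cdkn1c (chromosome 7, 143458339 to 143461050, minus strand) was at 0 reads in clone 2 labelled WT, MT194 clone 2 and MT486 clone 3, which allows up to 0.124, 0.142 and 0.138 CPM, and reached 10.3 CPM in Δ-C60 clone 2. In WT(N48) Cdkn1c had 2.54, 3.25 and 2.59 CPM. Annotated exons of Mest and Copg2 and of Cdkn1c and Gm44732 overlap on opposite strands.

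Grb10 (chromosome 11, 11930508 to 12038683, minus strand) had the smallest SD over clones of the 10 genes, with 1065 to 3385 CPM. WT(N48) clones had 2242, 2127 and 3385 CPM, the libraries labelled WT 1081, 1194 and 1189 CPM, MT194 1472, 1432 and 1065 CPM, MT486 1688, 1755 and 1499 CPM and Δ-C60 2251, 1275 and 1789 CPM. Levels in WT(N48) did not overlap those in WT, MT194 or MT486, but they overlapped those in Δ-C60. For these comparisons too, the share of all genes with ranges apart was not counted. Cobl, the gene next to Grb10, was also highest in WT(N48) clone 3, with 80.7 CPM, and lowest in clone 1 labelled WT, with 1.03 CPM.

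Comparisons between clone groups, 8 in all, were tested for the 7 genes not chosen by these differences, with the quasi-likelihood test of edgeR and Benjamini-Hochberg adjustment over 13223 genes. Calls needed a log2 fold change beyond 1 in either direction together with an adjusted p below 0.05. Of 56 pairs of gene and comparison, 1 was called: Grb10 rose in WT(N48) against WT, by 1.16 on the log2 scale (SE 0.23, adjusted p = 0.0308). Grb10 was also lower in MT194 than in WT(N48), with a log2 fold change of −0.97 (adjusted p = 0.034), short of the fold needed for a call. That adjusted p was above 0.05, and so no longer met the threshold, in 10 of 15 fits without 1 library, with 0.101 the highest. The fibroblast markers summed to 25564, 20884 and 16548 CPM in the WT(N48) clones and to 11547, 9996 and 7437 CPM in the libraries labelled WT, and the chondrocyte markers to 1929, 880 and 521 CPM and to 190, 439 and 276 CPM. Their median log2 fold changes were 1.16 over 8 fibroblast markers and 2.39 over 3 chondrocyte markers against 0.01 for all genes, with none called, and their part in the result was not tested. At an unadjusted p under 0.05 there were 23 of the 56 pairs, and 8.89% to 27.1% of all genes in each of the 8 comparisons. The share of all genes called was 1.47% for MT194, 0% for MT486, 1.47% for WT(N48) and 5.38% for Δ-C60 against WT. It was 3.24% for MT194, 0.272% for MT486 and 0% for Δ-C60 against WT(N48), and 0.28% for MT486 against MT194. For MT486 against WT and Δ-C60 against WT(N48), where 0 genes were called, DESeq2 called 111 and 142 genes and the unadjusted p was under 0.05 for 1176 and 1540 genes.

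In 7 of 15 fits without 1 library, the adjusted p of Grb10 in WT(N48) against WT was above 0.05. Over the 15 fits its log2 fold change ran from 0.90 to 1.29, and the lower end is short of the fold for a call. Its adjusted p was 0.0539 to 0.125 when clone 1, 2 or 3 labelled WT, MT486 clone 1 or 2, or WT(N48) clone 1 or 2 was left out, whereas DESeq2 gave 0.000143. With clone 2 as the 1 library labelled WT, the log2 fold change of Grb10 was 1.10 (SE 0.39, adjusted p = 0.569), Igf2 had −5.02 in MT486 and −4.46 in Δ-C60 (adjusted p = 0.892 and 0.415), and at most 0.0214% of genes were called in any comparison, so a lost call there does not show a smaller difference. Peg3 in Δ-C60 went from 2.69 to 5.76 on the log2 scale (adjusted p = 0.316). No fold is given for Cdkn1c there, because clone 2 labelled WT had 0 reads of it. DESeq2 called 13 of the 56 pairs, and it also called more of all genes than edgeR, with 3.67% for MT194, 0.839% for MT486, 4.91% for WT(N48) and 8.85% for Δ-C60 against WT, 6.64%, 2.91% and 1.07% for MT194, MT486 and Δ-C60 against WT(N48) and 2.95% for MT486 against MT194. Among the 13 were Igf2 in Δ-C60 against WT (log2 fold change −6.34, adjusted p = 0.00101) and in MT486 against WT (−6.90, adjusted p = 0.00255), Meg3 in 3 comparisons with WT, Mest in WT(N48) against WT (2.83, adjusted p = 0.0131) and Peg3 in Δ-C60 against WT (2.70, adjusted p = 0.0436). Of 8 fibroblast markers tested in Δ-C60 against WT, Fn1 was called (1.61, adjusted p = 0.0417, and 1.40 and 0.452 with 1 library labelled WT), with a median of 0.69 over the markers against 0.04 for all genes.

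In the EV populations, 3 of the 7 tested genes were lower 7 days after Ad-Cre than after Ad-GFP at an adjusted p under 0.05, and 2 of them were called. In EV, Cdkn1c was at 2.84 and 1.60 CPM with Ad-Cre against 9.64 and 7.02 CPM with Ad-GFP, and it fell by 1.90 on the log2 scale (SE 0.28, edgeR adjusted p = 0.000915). Mest was at 5.32 and 8.10 CPM against 15.1 and 28.4 CPM and fell by 1.70 (SE 0.39, adjusted p = 0.013). Peg3 was at 183 and 148 CPM against 324 and 318 CPM, with a log2 fold change of −0.96 (SE 0.19, adjusted p = 0.00481), just short of the fold for a call. Of 9 fibroblast markers tested in EV, S100a4 alone was called (−1.47, adjusted p = 0.00171), and their median log2 fold change was −0.53 against 0.00 for all genes. The 10 markers summed to 21399 and 33366 CPM in EV-Cre and 21672 and 31259 CPM in EV-GFP. The part of these markers in the results was not tested. Of all 13805 genes, 6.52% were called in EV and 13% had an adjusted p under 0.05.

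In MT194 Cdkn1c, Mest and Peg3 were all called. Cdkn1c was at 3.9 and 3.8 CPM with Ad-Cre against 8.88 and 7.26 CPM with Ad-GFP (log2 fold change −1.07, adjusted p = 0.0416). Mest was at 6.36 and 9.05 CPM against 19.4 and 33.7 CPM (−1.79, adjusted p = 0.0203), and Peg3 at 158 and 127 CPM against 297 and 281 CPM (−1.02, adjusted p = 0.0075). In this comparison 2.48% of genes were called. In DMT Cdkn1c was at 4.17 and 2.99 CPM against 8.11 and 6.05 CPM (−0.98, adjusted p = 0.0353). None of the 7 genes was called in DMT by edgeR, against 5.31% of all genes, while DESeq2 called Mest (−1.08, adjusted p = 0.0401). With MT486 and WT none of the 7 was called by edgeR or DESeq2, and edgeR called 1.46% and 0.0217% of all genes. Across the 35 pairs of gene and comparison, 5 were called, 14 had an unadjusted p under 0.05, and DESeq2 called 6. Of all genes, 26.5% in EV, 6.22% in WT, 16.4% in MT194, 14.5% in MT486 and 24.9% in DMT had an unadjusted p under 0.05, and DESeq2 called 7.47%, 0.203%, 3.55%, 2.64% and 6.39%.

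Cdkn1c, Mest and Igf2 were lower with Ad-Cre than with Ad-GFP in 10 of 10 pairs of libraries, and Peg3 in 9 of 10. The libraries of a pair shared construct and replicate number. These pairs came from 2 experiments, and the share of all genes with such a count was not taken. The summed adipocyte markers were also lower with Ad-Cre in 10 of 10 pairs (76.0 and 49.8 CPM in EV-Cre against 112 and 88.3 CPM in EV-GFP), the neural markers were higher in 10 of 10 (88.8 and 96.3 CPM against 54.0 and 91.3 CPM in EV) and the fibroblast markers were higher in 8 of 10. No adipocyte or neural marker was called with Ad-Cre in any construct, and the part of these markers in the results was not tested. Igf2 went from 1266 and 1689 CPM to 694 and 761 CPM in EV, a difference that did not pass the test (log2 fold change −1.02, adjusted p = 0.186). Replicate numbers pair the population libraries, which came from 2 independent experiments, and when that number entered the model 7 pairs were called, with the addition of H19 in EV (−1.20, adjusted p = 0.0114) and Mest in DMT (−1.11, adjusted p = 2.03e-05). The share of all genes called rose as well in that model, to 9.74% in EV, 0.869% in WT, 5.39% in MT194, 4.24% in MT486 and 8.8% in DMT. Without EV-Cre 1 or EV-GFP 2 the adjusted p of Mest in EV was 0.101 or 0.128, and without EV-Cre 2 that of Peg3 in EV was 0.0663. In MT194, leaving out single libraries raised the adjusted p of Peg3 to at most 0.0756 (MT194-Cre 2), of Mest to at most 0.158 (MT194-GFP 2) and of Cdkn1c to at most 0.247 (MT194-GFP 1), and in DMT that of Cdkn1c to at most 0.225 (DMT-Cre 2), while Cdkn1c in EV stayed at 0.0144 or below in all 20 such fits. When each construct was fitted alone, with 4 libraries, 0 pairs were called and the adjusted p of Cdkn1c in EV was 0.0634.

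**Figure D5:**
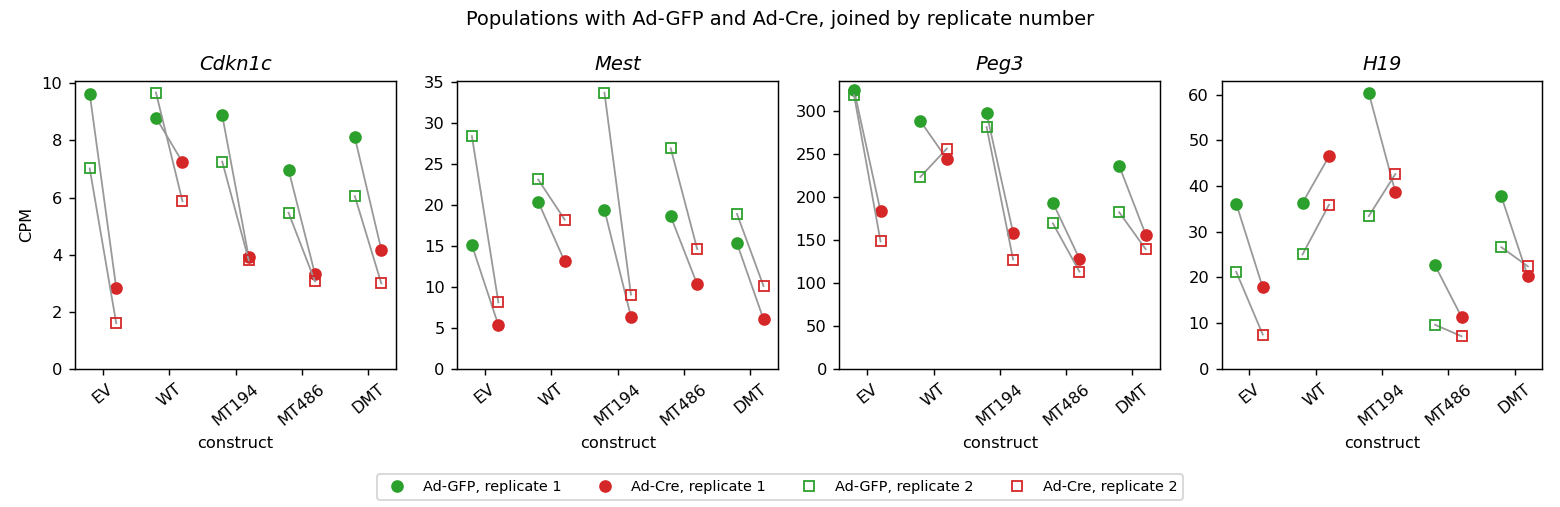
CPM of Cdkn1c, Mest, Peg3 and H19 in the populations by construct, with Ad-GFP in green and Ad-Cre in red and a line between libraries of the same replicate number. The lines for Cdkn1c and Mest fall in all constructs, steeply in EV for Cdkn1c and in EV and MT194 for Mest. Those for H19 fall in EV and rise in WT.

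Against EV with Ad-Cre, wild-type NELFB gave higher Cdkn1c and H19. With WT, Cdkn1c was at 7.24 and 5.87 CPM after Ad-Cre, 1.56 above EV on the log2 scale (SE 0.28, adjusted p = 0.0067). H19 was at 46.5 and 35.9 CPM with WT against 17.8 and 7.49 CPM with EV (1.70, SE 0.48, adjusted p = 0.0455). The share of all genes called was 4.05% for WT, 0.174% for MT194, 0.217% for MT486 and 0.00724% for DMT. In this edgeR fit, without a block, none of the 7 genes was called for the 3 mutants. DESeq2 called H19 in MT194 (1.69, adjusted p = 0.0236). The 4 comparisons share the EV-Cre libraries. Of the marker lists, S100a4 rose with WT (1.58, adjusted p = 0.00252) and with MT486 (1.46, adjusted p = 0.0225), and the cartilage collagen gene Col2a1 rose with MT486 (3.55, adjusted p = 0.0303), the 1 of 3 chondrocyte markers tested that did, with a median of −0.03 over them. The adipocyte markers summed to 113 and 99.9 CPM in WT-Cre against 76.0 and 49.8 CPM in EV-Cre, and the leukocyte markers to 2.15 and 3.67 CPM against 4.10 and 5.41 CPM, with none of either list called. The part of these markers in the results was not tested.

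With that block for the replicate, 6 of these 28 pairs were called rather than 2, and the share of all genes called was 8.63% for WT, 1.83% for MT194, 3.12% for MT486 and 0.0797% for DMT. DESeq2 called 4 of the pairs, and 5.68%, 0.739%, 1.7% and 0.0145% of all genes. Mest was higher (1.23, adjusted p = 1.49e-05) and Meg3 lower (−1.12, adjusted p = 0.00783) with WT, H19 higher with MT194 (1.78, adjusted p = 0.00571) and Igf2 lower with MT486 (−1.15, adjusted p = 0.0244). The call on H19 with WT was lost in 13 of 20 fits without 1 library, with an adjusted p of up to 0.342 without EV-Cre 2, and that on Cdkn1c without EV-Cre 2 (0.0809) or WT-Cre 1 (0.0641). Over those fits the log2 fold change ran from 1.21 to 2.46 for H19 and from 1.21 to 2.04 for Cdkn1c.

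The differences between the Cre effects themselves were tested too. For WT against EV they were 1.41 for Cdkn1c (SE 0.38, adjusted p = 0.137), 1.61 for H19 (adjusted p = 0.343) and 1.22 for Mest (adjusted p = 0.393), and none of the 28 pairs was called, with 6 at an unadjusted p under 0.05 and 1 called by DESeq2, Cdkn1c in WT. Of the 6, 4 were in WT, and Cdkn1c made up the others, in MT486 and DMT. Of all genes, 11.7% in WT, 3.22% in MT194, 5.18% in MT486 and 1.15% in DMT had an unadjusted p under 0.05, and DESeq2 called 1.8%, 0.109%, 0.181% and 0.00724%. With the replicate block the differences for WT were 1.39 for Cdkn1c (adjusted p = 0.00171), 1.64 for H19 (adjusted p = 0.0274) and 1.18 for Mest (adjusted p = 0.0013). Of all genes, 0.594% were called for WT and 0.00724% for each of the mutants, and with the block 4.93% for WT, 0.326% for MT194, 0.84% for MT486 and 0.00724% for DMT. With Ad-GFP, 0 of 28 pairs of gene and construct were called against EV by edgeR and by DESeq2, and 3 had an unadjusted p under 0.05, Igf2 and Peg3 in MT486 and Peg3 in DMT. Of all genes, edgeR called 0% for WT, MT194 and DMT and 0.00724% for MT486, while the unadjusted p was below 0.05 for 84, 276, 252 and 175 genes in WT, MT194, MT486 and DMT, where DESeq2 called 1, 5, 8 and 3.

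The 3 genes chosen by their differences are described for Cre without a test. Dlk1 and Ndn were higher with Ad-Cre in 10 of 10 pairs of libraries, from a mean of 370 ± 142 CPM (SD, n = 2) in EV-GFP to 422 ± 94.3 CPM in EV-Cre for Dlk1 and from 29.5 ± 2.01 to 30.6 ± 1.06 CPM for Ndn. Plagl1 was lower in 8 of 10, from 76.5 ± 3.87 to 52.9 ± 13.7 CPM in EV. The share of all genes with such counts of pairs was not taken. With MT486 Dlk1 had 151 and 244 CPM after Ad-Cre and 139 and 210 CPM after Ad-GFP, its lowest group means among the populations.

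Between the replicate numbers of the populations most genes of any kind differed. In a model with group and replicate number, 71.5% of all genes had an adjusted p under 0.05 and 1.09% were called, and of the 10 genes 9 had an adjusted p under 0.05 and none reached the fold for a call, by edgeR or DESeq2. The count for the 10 genes is thus near that for all genes. The fibroblast markers summed to more in replicate 2 in 10 of 10 groups (20519 to 23005 CPM in replicate 1 and 25997 to 44117 CPM in replicate 2), the neural and leukocyte markers likewise in 10 of 10, and the adipocyte markers in 0 of 10. The share of reads with no feature was higher in replicate 2 in 9 of 10 groups. The part of these measures in the values below was not tested. Meg3 was higher in replicate 2 by 0.89 on the log2 scale (SE 0.12, adjusted p = 5.61e-05), Dlk1 by 0.64 (adjusted p = 1.9e-07), Igf2 by 0.55 (adjusted p = 0.00282) and Mest by 0.55 (adjusted p = 9.78e-07), each in 10 of 10 groups. H19 was lower in replicate 2, with a log2 fold change of −0.56 (adjusted p = 0.00406), and Cdkn1c, Plagl1, Peg3 and Grb10 had −0.29, −0.21, −0.19 and −0.17. Ndn differed by 0.04 (adjusted p = 0.442).

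Other imprinted genes were read from a list of 70, of which 41 were tested in the populations and 38 in the clones. In EV 3 rose and 3 fell with Ad-Cre, against 6.52% of all genes called, and their median log2 fold change was 0.01 against 0.00 for all genes. The 3 that rose were Htr2a (1.65, adjusted p = 0.000826), the retrotransposon-derived Peg10 (1.58, adjusted p = 0.000678) and Begain, upstream of Dlk1 (1.48, adjusted p = 0.0462). Slc38a4, an amino acid transporter, fell by 1.65 (adjusted p = 0.024), as did Zim1 and Qpct, by 2.94 and 2.79, which were named after their values were seen. Zim1 lies beside Peg3 on chromosome 7. Peg10 and Htr2a also rose in MT194 (1.89 and 1.5), MT486 (1.20 and 1.02) and DMT (2.03 and 2.09), and Zim1 fell in MT194 and DMT. Of the clone comparisons, Δ-C60 against WT alone had a call in this list, 1 of 38 genes tested, where 5.38% of all genes were called. The gene was Blcap, with 1.15 (adjusted p = 0.00638). It had 1.06 with 1 library labelled WT, a fit that gives an effect size only. In Δ-C60 against WT the list's median was −0.02 against 0.04 for all genes. Between replicate numbers Kcnq1ot1, the non-coding RNA of the domain that holds Cdkn1c, was higher in replicate 2 by 1.55 (adjusted p = 1.22e-06).

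Genes of insulin-like growth factor signalling were 18, with 16 tested in the populations. In EV 1 rose and 2 fell: Irs2, a receptor substrate, rose by 1.33 on the log2 scale (adjusted p = 0.00886), the growth factor gene Igf1 fell by 3.15 (adjusted p = 0.000174) and Igfbp4, a binding protein, fell by 1.97 (adjusted p = 0.0222), with a median of −0.05 over the list against 0.00 for all genes, of which 6.52% were called. Igf1 also fell in MT194, MT486 and DMT, with log2 fold changes of −1.5, −1.75 and −3.21. In the clones 17 were tested, and in Δ-C60 against WT, where 5.38% of all genes were called, the protease gene Pappa (2.47, adjusted p = 0.0256) and the receptor gene Igf1r (1.44, adjusted p = 0.0287) rose while Igf2bp3 fell by 2.66 (adjusted p = 0.022). With 1 library labelled WT, an alternative chosen after the data were seen, their log2 fold changes were 2.02, 1.26 and −2.48, with adjusted p-values of 0.327 to 0.418. Pappa2, a gene named after its value was seen, rose by 3.48 in WT(N48) against WT (3.11 and an adjusted p of 0.589 with 1 library labelled WT), and Igf2bp3 was lower by a log2 fold change of −2.27 in MT194 against WT(N48).

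Of 17 genes of the Notch and DLK family, 14 were tested in the populations and 3 rose with Ad-Cre in EV, the Notch target Hes1 (1.79, adjusted p = 0.000737), the DNA-binding partner Rbpj (1.19, adjusted p = 8.51e-05) and Hey1 (2.41, adjusted p = 0.0301), the last named after its value was seen. The median over the list was 0.58 against 0.00 for all genes, of which 6.52% were called. In DMT, with 5.31% of all genes called, Hes1 and Rbpj rose (1.44 and 1.02). The ligand gene Dll4, named after its value was seen, fell by 2.59 in DMT, with a median of 0.12 over the list. Hes1 also rose in MT194 (1.35, adjusted p = 0.00936), where 2.48% of all genes were called. With Ad-Cre, Hes1 was lower in WT than in EV (−1.35, adjusted p = 0.00736), where 4.05% of all genes were called. In the clones the ligand gene Jag1 was the 1 call of 12 genes tested in Δ-C60 against WT, where 5.38% of all genes were called. Its log2 fold change there was 1.99 (adjusted p = 0.0127). It was 1.74 with 1 library labelled WT, a fit that gives an effect size only. Jag1 was also lower in MT486 than in WT(N48) (−2.04, adjusted p = 0.0406), where 0.272% of all genes were called. It was lower in MT486 than in MT194 as well (−1.91, adjusted p = 0.048), where 0.28% of all genes were called. Of 17 genes listed for setting or keeping imprints, such as Trim28, Zfp57 and Dnmt1, 16 were tested in the populations. Dnmt3l alone was called in EV (2.28, adjusted p = 0.0336), with a median of −0.14 over the list. It had a mean of 4.85 reads and was named after its value was seen. Of 8 relatives of the 10 genes tested, Cdkn1a, the p21 gene, rose by 2.24 (adjusted p = 0.000578) and Maged2, a MAGE gene as Ndn is, fell by 1.65 (adjusted p = 0.000476), with a median of 0.05.

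For each of Dlk1, Plagl1 and Ndn the 3 genes with the most similar log2 CPM over the 15 clones were listed, as a description. For Dlk1 they were Acp1 (Pearson's r 0.94, Spearman's rho 0.50), Ryk (0.94, 0.52) and Zbtb1 (0.87, 0.35). Nearly all Dlk1 reads of the clones were in 2 Δ-C60 clones, and their part in the gap between r and rho was not tested. Acp1 and Zbtb1 lie on chromosome 12 with Dlk1, at 30893326 to 30911589 and 76370266 to 76396950, and Ryk on chromosome 9. Acp1 ranged from 2.50 CPM in WT(N48) clone 2 to 29.4 CPM in Δ-C60 clone 1. For Plagl1 they were R3hdm2 (0.96, 0.77), Hmga2 (0.95, 0.66) and Mon2 (0.95, 0.80), all 3 on chromosome 10 as Plagl1 is, between 120361275 and 127499384, while Plagl1 lies at 13060504 to 13131694. Hmga2, a chromatin protein of embryonic cells, ranged from 6.41 CPM in MT194 clone 1 to 362 CPM in Δ-C60 clone 1. For Ndn they were Gpc3 (0.88, 0.87), Tmem47 (0.87, 0.89) and Npr3 (0.86, 0.79), with the first 2 on chromosome X and Npr3 on chromosome 15, while Ndn is on chromosome 7. Gpc3, a proteoglycan that restrains fetal growth, ranged from 0 to 20.2 CPM, Npr3 from 0.138 to 311 CPM, and Tmem47 reached 49.9 CPM in Δ-C60 clone 3 but at most 0.334 CPM in the populations.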

How the data were processed

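Poly(A) RNA of 35 mouse libraries (15 clones, 20 populations) was sequenced by the authors as 50-base single reads, aligned with Bowtie2 to mm10 and counted per gene with HTSeq, skipping alignments of low mapping quality. The deposited values are raw counts per gene, and tool versions, annotation and strand setting are not given in the sources used here. Reads with no feature, 9.14% to 21.3% per library, stayed out of library sizes. Groups came from the sample labels. Clones (13223 genes) and populations (13805 genes) were filtered with filterByExpr, scaled by TMM and fitted separately with edgeR 4.0.16 (quasi-likelihood test, R 4.3.3), with Benjamini-Hochberg adjustment. Calls needed an adjusted p below 0.05 with a log2 fold change beyond 1 in either direction. DESeq2 1.42.0, no filter, other size factors, a fold threshold of 0.5, a replicate block, the compared groups alone and leaving out libraries were alternatives. CPM used TMM library sizes, with 0.1 added before log2. A level of 0 reads was bounded by 3 reads, which covers counting error only. The fitting code was tested on simulated data.

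Same-numbered population libraries deviated together from their group means in 45 of 45 pairs of groups (Pearson's r 0.42 to 0.73), and the study describes 2 independent experiments. The members and gene lists were chosen with earlier results of these data known. Genes of the lists were named where called with a mean of at least 50 reads, and others are said to be named after their values were seen. Gene positions are from the GRCm38 annotation.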

Additional observations from a re-analysis of the deposited data

Results flagged for a closer look

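With the replicate number as a block, the effect of Ad-Cre differed between WT and EV populations for 3 of the 7 tested genes, by a test of the difference itself (edgeR, adjusted over all genes). On the log2 scale the difference was 1.39 for Cdkn1c (adjusted p = 0.00171), 1.64 for H19 (adjusted p = 0.0274) and 1.18 for Mest (adjusted p = 0.0013). Cdkn1c and Mest were lower with Ad-Cre in both replicates of both constructs, while H19 was lower with Ad-Cre in both EV replicates and higher in both WT replicates. Of all genes, 4.93% were called for this difference with the block and 0.594% without it, and without it these 3 differences did not pass the threshold.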

How the results depend on the processing

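Between clone groups the number of called pairs of gene and comparison was 1. It was 2 at a fold threshold of 0.5, 13 with DESeq2, 0 with the replicate block, 3 with the compared groups alone, 0 without the libraries labelled WT clones 1 and 3, and 0 to 2 when single libraries were left out. For Ad-Cre against Ad-GFP it was 5, with 0 when the compared groups were fitted alone and 2 to 5 without single libraries. For constructs against EV with Ad-Cre it was 2, with 4 by DESeq2, 6 with the replicate block and 0 to 2 without single libraries. With Ad-GFP it was 0 in every alternative run, and 0 without any single library. For the difference of Cre effects it was 0, with 1 by DESeq2, 3 with the replicate block and 0 without any single library. For replicate 2 against replicate 1 it was 0, with 5 at a fold threshold of 0.5 and 0 without any single library. The causes of these shifts were not tested.

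None of the 20 single-gene results with an adjusted p under 0.05 changed direction under the alternatives run. Of the single-gene results without 1 library, 334 kept their side of the threshold and 56 lost it. DESeq2 and its size factors each kept 20 of 20, and no filter kept 19, with Cdkn1c in MT194 at an adjusted p of 0.0513. The compared groups alone kept 1 and lost 8, the replicate block kept 9 and lost 2, and the fit with 1 library labelled WT kept 0 and lost 2. In the clones, replicate numbers are a shared number only (r over 0.1 in 3 of 30 pairs of groups), and the replicate block moved Grb10 in WT(N48) against WT to an adjusted p of 0.0592. Depth (a median of 20933014 reads on genes per clone library) limits levels of a few reads, such as the 2 to 9 reads of Dlk1 in 12 clones.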
